A study of Mus musculus with 4 samples.

Results

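The antiviral interferon-stimulated genes are 49 genes whose products sense viral nucleic acid, block viral entry, translation or release, or tune the interferon response itself. They were picked out by gene name from the 54078 features of the kidney expression table, after interferon-induced genes had been seen lower in the knockout columns. The lower levels in the knockout are therefore what chose them, and every knockout against wildtype value given for them is a description without a test. All 49 names were found once in the table. Of these, 47 were among the 15414 features with a mean of at least 0.5 FPKM (fragments per kilobase of transcript scaled to the library's mapped reads), and Oas3 and Ifi47 were below that level.

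The study asked which genes differ in the injured kidney when renal tubules lack Apela, the gene of the peptide ELABELA (ELA). RNA came from kidneys of adult male mice at day 3 after bilateral ischemia/reperfusion (I/R), with both kidneys clamped for 30 min. The WT group held Apela flox/flox Cre-/- littermates and the ApelaKsp KO group held Apela flox/flox mice with Cre driven by the Ksp-cadherin promoter, which is active in tubular epithelium, so both groups carried the floxed alleles and the injury, and other kidney cells of the KO mice kept the gene. Each group had 2 libraries, each made from pooled RNA of 3 mice, and the labels give the strain as C57BL/6 x 129S4/SvJae while the methods give C57BL/6. Spread between animals within a pool cannot be seen, and no uninjured kidney was sequenced.

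Reads assigned to genes numbered 16045724 to 16927742 in each library, and 5.20% to 6.45% of them were mitochondrial. Apela itself was at 5.27 and 4.57 FPKM in the WT pools and at 0.536 and 0.245 FPKM in the KO pools. The series text names adipose tissue, while the sample labels say kidney. Summed over 8 proximal tubule markers the level was 5957 to 11029 FPKM, against 0.385 to 8.27 FPKM over 6 adipose markers, with Ucp1 at 0 in all 4 libraries. WT pool 2 stood apart from the other libraries in macrophage and monocyte markers. The 12 genes listed for these cells summed to 470 FPKM there, against 189 FPKM in WT pool 1, 231 FPKM in KO pool 1 and 221 FPKM in KO pool 2. Results are therefore also given against WT pool 1 alone. In whole kidney RNA, fewer cells of a type and less RNA per cell cannot be told apart.

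Type I and type III interferons act through cell surface receptors that switch on the kinases JAK1 and TYK2. These phosphorylate transcription factors of the STAT family, which together with IRF9 bind the interferon-stimulated response element in the promoters of their targets. Interferon gamma acts mainly through a second element, the gamma-activated site. Injured kidney can show interferon target genes without a virus, since nucleic acid from damaged cells can engage the same sensors.

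The response element is the promoter sequence through which STAT factors and IRF9 act on their targets, so the promoters were read first. RefSeq promoter windows (GRCm38.p6, from 250 bases before to 50 bases after each start site) were matched by symbol to 36 of the 49 genes. The 13 genes without a window were Dhx58, Zbp1, Oas1b, Oas2, Usp18, Mx1, Mx2, Parp9, Parp14, Ifi27, Ifi27l2a, Ifi204 and Rtp4. The letters GAAANNGAA, a core of the element, were searched on both strands. They were found in 19 of the 36 genes (52.8%) against 9.76% of all 27025 genes with a window, and at least 2 matches in 1 window were found in 13 of the 36 against 0.736% of all genes. Requiring another A after the core left 17 of the 36 (47.2%) against 3.99% of all genes. The gamma-activated site was searched as TTCNNNGAA, which reads the same on both strands. It was found in 8 of the 36 (22.2%) against 9.55% of all genes, and it overlapped a core match in 2 genes, Bst2 and Ifitm3. These counts describe letters in a short window and do not show that a factor bound there.

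The upstream stretches below are shown because they carry the core matches of genes whose levels are described in the next paragraphs, each 5′ to 3′ on the strand of its gene with the core in capitals; TTC-first capitals are the core read from the opposite strand. For Ifit3 and Ifit3b the matches nearest the start site are shown, and the remaining matches, at −155 and −187 bases, lie outside the stretch. They run from Isg15, with 3 overlapping cores at −78, −72 and −66 bases from the start site, through the Ifit and Oas genes and Bst2, to Rsad2 and Ifitm2, whose pools overlapped between the groups.
Isg15, chr4:156200862-156200910, minus strand: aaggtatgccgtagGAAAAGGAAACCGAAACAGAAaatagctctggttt
Ifit1, chr19:34640766-34640827, plus strand: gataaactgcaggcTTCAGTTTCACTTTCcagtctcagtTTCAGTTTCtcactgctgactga
Ifit3, chr19:34583394-34583449, plus strand: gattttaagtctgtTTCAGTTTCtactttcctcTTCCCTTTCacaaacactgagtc
Ifit3b, chr19:34607790-34607845, plus strand: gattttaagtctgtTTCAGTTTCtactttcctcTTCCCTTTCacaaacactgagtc
Oas1a, chr5:120907526-120907559, minus strand: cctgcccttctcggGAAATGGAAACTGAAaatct
Oas1g, chr5:120887614-120887645, minus strand: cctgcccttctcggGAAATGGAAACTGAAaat
Oas3, chr5:120777706-120777748, minus strand: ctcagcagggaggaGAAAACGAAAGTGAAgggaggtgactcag
Bst2, chr8:71537574-71537616, minus strand: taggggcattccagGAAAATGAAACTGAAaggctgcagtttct
Rsad2, chr12:26456549-26456585, minus strand: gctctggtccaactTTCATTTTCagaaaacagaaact
Ifitm2, chr7:140955985-140956021, minus strand: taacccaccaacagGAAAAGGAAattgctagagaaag

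The stretches of Ifit3 and Ifit3b were identical over all 56 bases, and those of Oas1a and Oas1g over all 32 bases compared. Across the matched genes, 37 core matches were found at positions from −249 to 34 bases relative to the start site, both ends being matches in Adar.

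**Figure D1:**
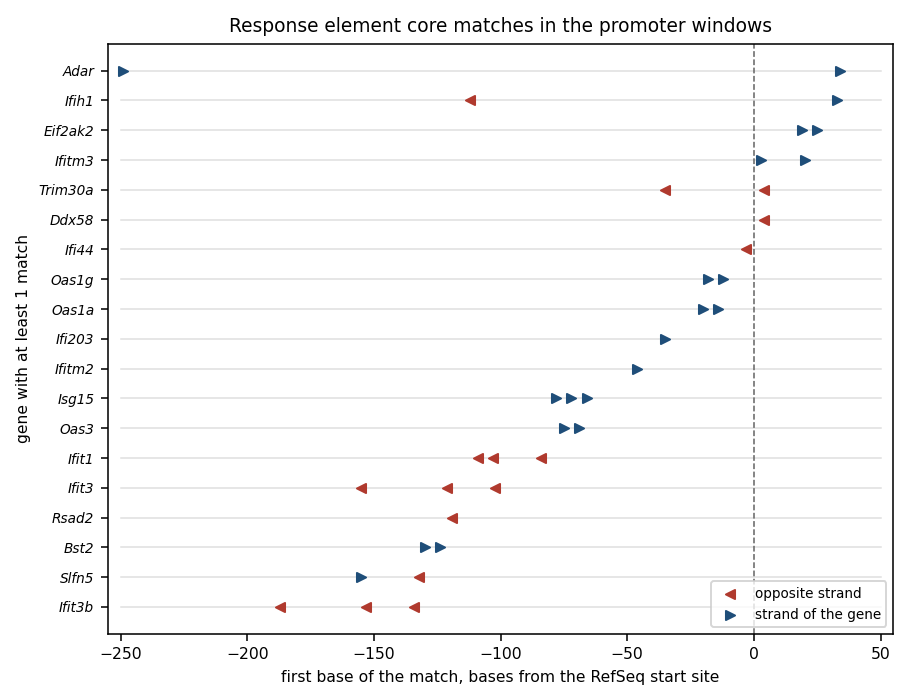
Position of each core match (x axis, bases from the RefSeq start site, dashed line) in the 19 antiviral genes with at least 1 match (y axis). Right-pointing blue markers are matches on the strand of the gene and left-pointing red markers are matches on the opposite strand, with each grey line spanning the window from 250 bases before to 50 bases after the start. Isg15, Ifit1, Ifit3 and Ifit3b hold 3 matches each, and the matches of Trim30a come from windows of different start sites.

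Differences below are KO minus WT on the log2(FPKM + 0.5) scale, so a negative value is a lower level in ApelaKsp KO, and they understate the change of genes near or below 0.5 FPKM. In 47 of the 49 genes the mean was lower in ApelaKsp KO kidneys, as it was in 7497 of all 15414 genes. Both KO pools lay below both WT pools in 33 of the 49 genes, where 18.1% of all 15414 genes did, and the reverse, KO pools higher throughout, was found in no member and in 19.7% of all genes. The pools of the groups overlapped in the remaining 16 genes. The median difference was −0.67, and on this scale the values ran from −1.37 for Ifi27l2a to 0.10 for Lgals3bp. Over all genes the median difference was 0.01, and from the 5th to the 95th percentile the differences ran from −0.51 to 0.52. No gene of the 15414 passed an adjusted p of 0.05 in limma (percent called 0), and 974 had an unadjusted p under 0.05. With 2 pools a group, single genes of this size of change did not pass in this fit. The study, at an adjusted p under 0.05 and any fold change, did report differentially expressed genes for injured KO against injured WT kidneys. Its methods name no test, and the reason for the unlike counts was not tested.

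The levels covered a wide range, and FPKM, which is per length, allows them to be ranked. Ifitm3, Lgals3bp and Ifitm2 were the most abundant, with means of 92.7, 78.1 and 56.4 FPKM over the 4 pools. Ifi27, Bst2, Ifi27l2a and Ifit3 followed at 36.5, 35.0, 31.1 and 20.9 FPKM, and no other member had a mean above 10 FPKM. Neighbours in this order had overlapping ranges over the pools, except that the lowest pool of Ifitm2, at 47.5 FPKM, was above the highest pool of Ifi27, at 46.1 FPKM. At the lower end, Mx2 and Mx1 had means of 0.540 and 0.566 FPKM.

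**Figure D2:**
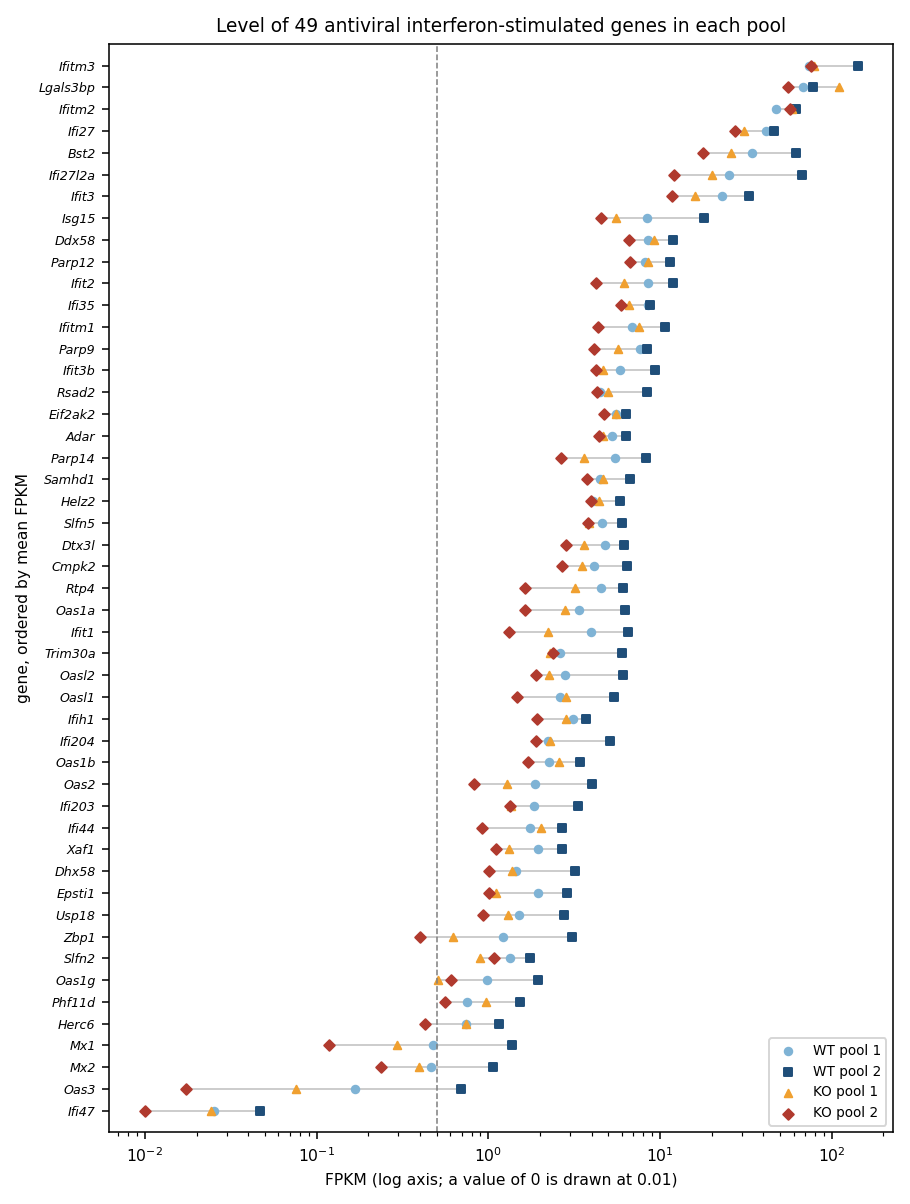
FPKM (x axis, log scale) of each of the 49 genes (y axis, ordered by mean) in the 2 WT pools (blue circle and square) and the 2 KO pools (orange triangle and red diamond), with a grey line over the range. The dashed line marks 0.5 FPKM, and WT pool 2 (dark square) is the rightmost point in 48 of the 49 genes.

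The sensors came first in the pathway. Ddx58, Ifih1 and Dhx58 encode RIG-I, MDA5 and LGP2, the cytoplasmic receptors of viral double-stranded RNA, and Zbp1 encodes a sensor of Z-form nucleic acid. Zbp1 was at 1.22 and 3.06 FPKM in the WT pools and at 0.627 and 0.401 FPKM in the KO pools, a difference of −1.30 (SE 0.40) that rested on 23 to 186 reads per pool. Ifih1 was at 3.10 and 3.73 FPKM in WT and 2.84 and 1.92 FPKM in KO. Dhx58 was at 1.45 and 3.20 FPKM in WT and 1.37 and 1.02 FPKM in KO. In these 3 genes both KO pools were below both WT pools (18.1% of all genes). KO pool 1 was, however, close to WT pool 1 for Dhx58 and Ifih1. Ddx58 was at 8.49 and 12.0 FPKM in WT and 9.17 and 6.62 FPKM in KO, so its groups overlapped.

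The OAS enzymes make 2′-5′ oligoadenylates that activate RNase L, which degrades viral and cellular RNA. Oas1a was at 3.37 and 6.29 FPKM in WT and 2.79 and 1.63 FPKM in KO (difference −0.95, SE 0.36). Oasl2 was at 2.80 and 6.13 FPKM in WT and 2.27 and 1.89 FPKM in KO. Both had KO pools below WT pools, as had Oas1g and Oas2, with differences of −0.85 and −1.09. Oasl1, which encodes an OAS-like protein that restrains translation of IRF7, was at 2.60 and 5.39 FPKM in WT and 2.84 and 1.46 FPKM in KO. Oas1b, the gene of flavivirus resistance in mice, was at 2.25 and 3.44 FPKM in WT and 2.58 and 1.70 FPKM in KO. For Oasl1 and Oas1b, KO pool 1 was therefore above WT pool 1. Oas3 was at the edge of detection, with 19 and 84 reads in the WT pools and 9 and 2 reads in the KO pools. The median difference of the 7 genes was −0.85, and −0.36 against WT pool 1 alone. Oas1a, Oas1b, Oas1g, Oas2 and Oas3 lie together on chr5:120730333-120907521, and Oas1a and Oas1g shared 57.6% and 54.7% of their 50-base transcript windows with other genes, in nearly all cases with each other, so reads may be split between them.

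The IFIT proteins bind viral RNA and block its translation, and their 4 genes lie side by side on chr19:34550694-34650009. The median difference was −0.95, or −0.70 against WT pool 1 alone, and the KO pools were below the WT pools in 4 of 4 genes (18.1% of all genes). Ifit1 (ENSMUSG00000034459) was at 3.98 and 6.48 FPKM in WT and 2.23 and 1.32 FPKM in KO (difference −1.33, SE 0.31). Ifit3 was at 22.9 and 33.1 FPKM in WT and 16.0 and 11.7 FPKM in KO (difference −0.98, SE 0.24). Ifit2 was at 8.49 and 11.8 FPKM in WT and 6.17 and 4.22 FPKM in KO. In all 3 genes the difference between the groups was wider than the gap within WT or within KO. Ifit3b was at 5.88 and 9.33 FPKM in WT and 4.66 and 4.22 FPKM in KO. Ifit3 and Ifit3b, whose promoter stretches are identical above, also shared 51.2% and 45.0% of their transcript windows with other genes, and their separate values are uncertain to that extent.

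Isg15 (ENSMUSG00000035692) encodes a ubiquitin-like protein that is joined to other proteins, Usp18 removes it and dampens receptor signalling, and Herc6 is the mouse ligase for it. Isg15 was at 8.39 and 18.0 FPKM in WT and 5.54 and 4.56 FPKM in KO (difference −1.21, SE 0.37). Usp18 was at 1.52 and 2.75 FPKM in WT and 1.31 and 0.927 FPKM in KO. Herc6 was at 0.743 and 1.15 FPKM in WT and 0.746 and 0.431 FPKM in KO. The Isg15 and Usp18 groups were apart, while KO pool 1 and WT pool 1 were level for Herc6.

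The restriction factors hinder single steps of viral entry, replication or release, and they divided into genes with the groups apart and genes with overlap. Bst2 (ENSMUSG00000046718), the gene of tetherin, which holds budding virions at the cell surface, was at 34.2 and 62.0 FPKM in WT and 26.0 and 17.8 FPKM in KO (difference −1.08, SE 0.35). The groups were also apart for Mx1 and Mx2, genes of dynamin-like GTPases against viral nucleoproteins, and for Cmpk2, the gene of a nucleotide kinase next to Rsad2, with differences of −0.95, −0.59 and −0.67. Mx1 rested on 28 and 86 reads in WT and 18 and 7 reads in KO. The IFITM proteins hinder fusion of viruses with the cell membrane. Ifitm3 was at 73.9 and 142 FPKM in WT and 79.4 and 76.2 FPKM in KO, so that only WT pool 2 was high. Ifitm2 was at 47.5 and 62.1 FPKM in WT and 58.4 and 57.5 FPKM in KO, with a difference of 0.09. Ifitm1 was at 6.88 and 10.7 FPKM in WT and 7.60 and 4.33 FPKM in KO. In none of the 3 were the groups apart, and Ifitm2 shared 48.5% of its transcript windows with other genes. Rsad2, the gene of viperin, which makes a chain-terminating nucleotide, was at 4.49 and 8.41 FPKM in WT and 5.01 and 4.29 FPKM in KO. Samhd1, the gene of a phosphohydrolase that depletes deoxynucleotides, was at 4.45 and 6.71 FPKM in WT and 4.66 and 3.76 FPKM in KO. Both overlapped because KO pool 1 was above WT pool 1. The 9 genes had a median difference of −0.54, or −0.24 against WT pool 1 alone, with 4 of 9 apart (18.1% of all genes).

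Adar edits adenosines in double-stranded RNA and Eif2ak2 encodes PKR, which halts translation on sensing it. Adar was at 5.26 and 6.37 FPKM in WT and 4.65 and 4.39 FPKM in KO (difference −0.33, SE 0.14). Eif2ak2 was at 5.54 and 6.32 FPKM in WT and 5.55 and 4.75 FPKM in KO. The groups were apart for Adar only, and the differences of this pair were small beside those of the IFIT genes.

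Parp9 and its partner Dtx3l form an ADP-ribosylation and ubiquitin ligase complex, and they lie with Parp14 on chr16:35832874-35972605. Parp14 was at 5.50 and 8.25 FPKM in WT and 3.60 and 2.66 FPKM in KO (difference −1.01, SE 0.24). Parp9 was at 7.66 and 8.38 FPKM in WT and 5.71 and 4.11 FPKM in KO (difference −0.67, SE 0.18). Dtx3l was at 4.77 and 6.18 FPKM in WT and 3.63 and 2.82 FPKM in KO. All 3 neighbours had both KO pools below both WT pools (18.1% of all genes), and for Parp9 the WT pools were close to each other. Parp9 and Dtx3l overlap by 682 bases on opposite strands, and the labels describe no strand-marking library, so reads there could belong to either. Parp12, the gene of a zinc finger ADP-ribosyltransferase, was at 8.22 and 11.5 FPKM in WT and 8.50 and 6.71 FPKM in KO, and its groups overlapped.

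Among the IFI and PYHIN genes, Ifi27l2a (ENSMUSG00000079017) was at 25.1 and 67.2 FPKM in WT and 20.0 and 12.1 FPKM in KO (difference −1.37, SE 0.53). Its neighbour Ifi27 was at 41.6 and 46.1 FPKM in WT and 31.0 and 27.2 FPKM in KO (difference −0.58, SE 0.13). Ifi35 was at 8.50 and 8.78 FPKM in WT and 6.65 and 5.92 FPKM in KO (difference −0.43, SE 0.12). Ifi27 and Ifi35 had smaller differences than Ifi27l2a and pools that lay closer together. Ifi203, a PYHIN gene, had a difference of −0.70 with the groups apart. It overlaps Mndal by 22085 bases on the same strand, which had 117 and 282 reads in WT and 107 and 93 reads in KO, so reads may be split between them. Ifi204, a PYHIN gene of DNA sensing, was at 2.22 and 5.14 FPKM in WT and 2.28 and 1.90 FPKM in KO. Ifi44 was at 1.75 and 2.69 FPKM in WT and 2.04 and 0.914 FPKM in KO, and both genes overlapped between groups. Ifi47, a gene of the immunity-related GTPases, had 0 to 2 reads per pool and gives no comparison. It lies within the span of Olfr56 on the same strand, which had 4 to 15 reads per pool.

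In the last group of 9, both KO pools were below both WT pools for 6 genes (18.1% of all genes). Slfn5, a Schlafen gene, was at 4.60 and 5.98 FPKM in WT and 3.86 and 3.82 FPKM in KO. The other 5 were Rtp4, Epsti1, Xaf1, Trim30a and Slfn2, with differences between −1.03 for Rtp4 and −0.46 for Slfn2. Without KO pool 2 the value of Rtp4 was −0.64. Lgals3bp, the gene of a secreted glycoprotein that binds galectin-3, was at 68.5 and 78.1 FPKM in WT and 110 and 55.7 FPKM in KO, and it was the member in which KO pool 1 was the highest library. Helz2, the gene of a helicase that acts as a transcriptional coactivator, was at 4.06 and 5.84 FPKM in WT and 4.41 and 3.97 FPKM in KO. Phf11d was at 0.747 and 1.54 FPKM in WT and 0.970 and 0.561 FPKM in KO. These 3 genes overlapped between the groups, and Lgals3bp had one of the 2 positive differences among the 49 genes.

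**Figure D3:**
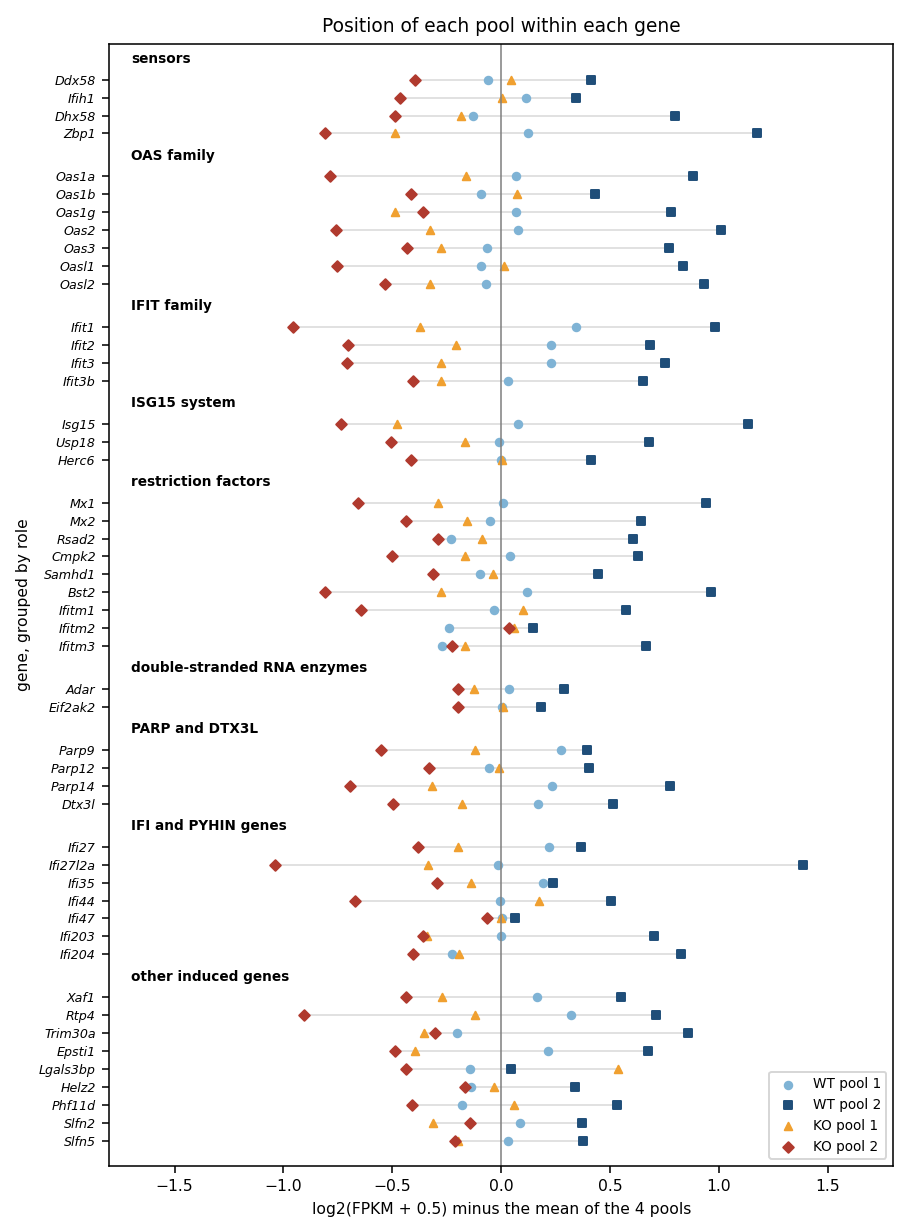
log2(FPKM + 0.5) of each pool minus the mean of the 4 pools (x axis) for the 49 genes grouped by role (y axis). WT pool 2 (dark blue square) lies furthest right in 48 of the 49 genes and KO pool 2 (red diamond) furthest left in 44, while WT pool 1 lies left of KO pool 1 in the 16 genes whose groups overlapped.

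The pools within each group differed in the same direction in nearly every member. WT pool 2 was above WT pool 1 in 49 of 49 genes (49.2% of all genes), with a median gap of 0.55, and it was the highest of the 4 libraries in 48 of the 49 (29.1% of all genes). KO pool 1 was above KO pool 2 in 46 of the 49 (49.2% of all genes), with a median gap of 0.32, and KO pool 2 was the lowest library in 44 of the 49 (23.7% of all genes). The full order of WT pool 2, WT pool 1, KO pool 1 and KO pool 2 was found in 30 of the 49 genes, against 5.97% of all genes. In 22 of the 49 genes the gap between the WT pools was wider than the difference between the groups. The share of all genes was not computed for this count, so it only describes the members.

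The size of the change therefore depended on which WT pool was used. Against WT pool 2 the median difference of the 49 genes was −0.94, and against WT pool 1 it was −0.33. WT pool 1 was above both KO pools in 33 of the 49 genes, where it was so in 32% of all genes. Isg15, Bst2 and Ifi27l2a were at −0.69, −0.66 and −0.67 against WT pool 1 alone. Likewise, Oas1a, Oas1g and Oas2 were at −0.55, −0.49 and −0.62, Mx1, Mx2 and Cmpk2 at −0.48, −0.25 and −0.37, and Adar and Ifi203 at −0.20 and −0.35. With WT pool 2 left out, Ifit1, Rtp4 and Zbp1 had differences of −1.01, −0.83 and −0.77, while those of Rsad2, Helz2 and Phf11d were 0.04, 0.04 and 0.00 and that of Ifitm3 was 0.07.

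Macrophage and monocyte genes moved along with WT pool 2. Of the 12 listed, 11 passed the level filter, and the median gap between WT pools was 1.18. Adgre1, the gene of F4/80, was at 3.09 and 11.2 FPKM in WT and 3.89 and 2.43 FPKM in KO. C1qa was at 38.7 and 88.3 FPKM in WT and 43.1 and 33.3 FPKM in KO. The median difference of the macrophage genes was −0.62 over both WT pools and 0.03 against WT pool 1 alone, where the 47 antiviral genes past the filter had −0.34. Markers of 3 further immune cell types were lower in both KO pools than in both WT pools when summed. The 9 T and NK cell markers summed to 1.47 and 2.27 FPKM in WT and 0.472 and 0.664 FPKM in KO, on 52 and 90 against 17 and 24 reads, with Cd3e at 0 in every pool but WT pool 2. Those of plasmacytoid dendritic cells, known as strong interferon producers, summed to 0.527 and 0.961 FPKM in WT and 0.384 and 0.171 FPKM in KO, and no gene of these 2 lists passed the filter. Dendritic cell markers summed to 4.07 and 5.58 FPKM in WT and 3.77 and 3.32 FPKM in KO, with 3 of 8 past the filter. Of these 3, 1 had both KO pools below both WT pools (18.1% of all genes) and 2 overlapped. The low sums of the 3 cell types moved in the direction of the antiviral genes, also against WT pool 1. For cell numbers at this stage, the study reported no significant difference in infiltrating lymphocytes or neutrophils between WT and KO mice. Neutrophil markers summed to 11.1 and 22.8 FPKM in WT and 11.9 and 29.0 FPKM in KO, and B and plasma cell markers to 2.35 and 6.30 FPKM in WT and 2.06 and 3.72 FPKM in KO, and both overlapped between the groups. Fibroblast markers were also highest in WT pool 2, at 280 FPKM against 141 to 191 FPKM elsewhere. The 8 proximal tubule markers, led by Kap, summed to 11029 and 5957 FPKM in WT and 7051 and 10999 FPKM in KO, a sum carried by Kap. In 5 of the 8 both KO pools were below both WT pools and in 1 both were above, against 18.1% and 19.7% of all genes, and the median difference was −0.38, or −0.55 against WT pool 1 alone. Endothelial markers summed to 156 and 176 FPKM in WT and 223 and 228 FPKM in KO, with both KO pools above in 4 of 7 (19.7% of all genes). The part of these other cell types in the antiviral values was not tested.

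The genes upstream of the antiviral set were followed in lists of the interferon pathway. Of 21 interferon ligand genes, 16 were listed at 0 in all 4 pools, and the highest value of any was 0.199 FPKM, so no ligand could be compared. All 6 receptor genes were detected, and none was apart between the groups. Over all genes, 18.1% had both KO pools below both WT pools and 19.7% had both above. Ifngr1 was at 29.0 and 32.5 FPKM in WT and 41.7 and 31.7 FPKM in KO, and Ifngr2 at 14.6 and 18.1 FPKM in WT and 14.2 and 17.4 FPKM in KO. Ifnar1 was at 11.4 and 13.0 FPKM in WT and 11.8 and 11.3 FPKM in KO, and Ifnar2 at 7.12 and 10.1 FPKM in WT and 7.42 and 6.53 FPKM in KO. The receptor levels thus overlapped, with a median difference of −0.06, or 0.03 against WT pool 1 alone.

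Of the 12 JAK, STAT and IRF genes, 7 had both KO pools below both WT pools (18.1% of all genes), and the median difference was −0.23, or −0.12 against WT pool 1 alone. Jak1 was at 27.9 and 32.4 FPKM in WT and 26.5 and 26.8 FPKM in KO. Irf3 and Jak2, a transcription factor and a kinase present without stimulation, had differences of 0.05 and 0.08, or 0.01 and 0.05 against WT pool 1 alone. Irf1, a factor induced by interferon gamma, was at 8.95 and 13.4 FPKM in WT and 6.34 and 4.89 FPKM in KO (difference −0.92). Stat2 and Irf9, singled out for their role at the response element after their values were seen, were among the 7, with differences of −0.55 and −0.46. None of the 12 passed the limma test over all genes at a Benjamini-Hochberg adjusted p of 0.05.

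Other lists showed a spread of patterns. The interferon-induced GTPases of the GBP and IRG families, which attack the vacuoles of intracellular pathogens, were lower by more than the antiviral genes in the median, at −1.08 over the 12 of 18 past the filter, and 10 of those 12 had both KO pools below both WT pools (18.1% of all genes). Igtp was at 21.7 and 16.9 FPKM in WT and 7.51 and 5.27 FPKM in KO, and Irgm2 at 17.0 and 13.2 FPKM in WT and 8.62 and 5.49 FPKM in KO, both with WT pool 1 the higher of the WT pools. Gbp2 was at 12.2 and 20.7 FPKM in WT and 6.27 and 4.77 FPKM in KO, and Gbp3 at 8.56 and 15.3 FPKM in WT and 6.67 and 3.15 FPKM in KO. Against WT pool 1 alone the median of the 12 was −0.92. None of the 12 passed in limma, with adjusted p-values from 0.466 upward. Whether these genes differ from the antiviral set was not tested.

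Of the 15 adaptors and other sensors, 13 passed the filter, 4 had both KO pools below both WT pools and 1, Mavs, had both above, where the shares of all genes were 18.1% and 19.7%. Mavs, the mitochondrial adaptor of RIG-I and MDA5, was at 38.1 and 35.2 FPKM in WT and 44.4 and 55.5 FPKM in KO. Unc93b1, a chaperone of endosomal Toll-like receptors, was at 13.4 and 26.3 FPKM in WT and 15.5 and 12.6 FPKM in KO. Ticam1 and Myd88, the adaptors of those receptors, had differences of 0.17 and −0.17, or 0.21 and −0.09 against WT pool 1 alone. Of the 6 negative regulators, 2 had the groups apart, Ptpn2 and Pias1, and the differences of the 4 most abundant, Socs3, Ptpn1, Ptpn6 and Ptpn2, were −0.29, −0.04, −0.15 and −0.22, or −0.03, 0.05, 0.07 and −0.19 against WT pool 1 alone. In neither list did a gene pass in limma, with adjusted p-values from 0.785 upward.

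Paralogs of the antiviral genes from the same families, which were not in the set, served as a comparison by family. Of 56 names, 53 were found and 30 passed the filter. Both KO pools were below both WT pools in 12 and above in 5 of these 30, against 18.1% and 19.7% of all genes, and the median difference was −0.13, or 0.03 against WT pool 1 alone. The 4 most abundant were Trim25, Parp3, Eif2ak1 and Parp10, with differences of −0.08, −0.45, 0.03 and −0.09, or −0.03, −0.27, −0.05 and −0.08 against WT pool 1 alone. No paralog passed in limma, with adjusted p-values from 0.785 upward.

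**Figure D4:**
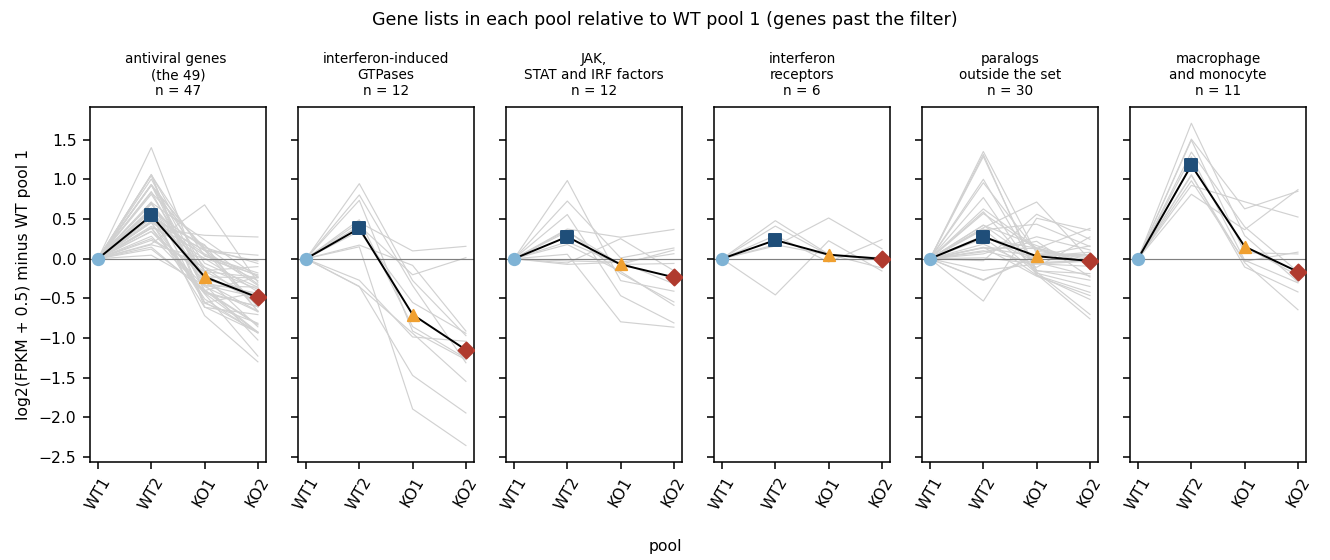
log2(FPKM + 0.5) of each pool minus WT pool 1 (y axis) over the 4 pools (x axis) for the genes past the level filter in 6 lists. Grey lines are single genes and coloured points joined in black are medians, and the macrophage list has its peak in WT pool 2 and returns to the level of WT pool 1 in the KO pools, while the medians of the antiviral genes and the GTPases lie below WT pool 1 in both KO pools, with single genes above it.

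The genes with a core match in the promoter window and those without were both lower in ApelaKsp KO. The 19 with a match had a median difference of −0.66 with 13 apart, and the 17 without had a median of −0.46 with 9 apart, beside 18.1% of all genes. Against WT pool 1 alone these medians were −0.29 and −0.28. Ifitm2 carried a match at −46 bases yet had KO pools within the range of the WT pools, and Ifit2, in which no match was found, had a difference of −0.91. Within the clusters, the Ifit genes and the Parp9, Dtx3l and Parp14 neighbours shared a direction, while the Ifitm genes on chr7:140954837-141010770 ran from −0.54 for Ifitm1 to 0.09 for Ifitm2. The value of Ifitm1 was −0.91 without KO pool 1, −0.24 without WT pool 2 and −0.17 without KO pool 2. In all, 23 of the 49 genes lay in 8 clusters in which neighbours were under 100 kb apart. These genes share a position, and some, such as the Ifit and Oas genes, also a family, while Rsad2 and Cmpk2 do not.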

How the data were processed

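Poly(A) RNA of 4 pooled kidney samples was sequenced. Per the labels' processing notes, reads were aligned with HISAT2 2.0.5 to mm10 (GRCm38.p6). The counting tool is not given in the sources used here. The authors deposited FPKM per gene, with gene positions and lengths, which matched GENCODE M21 for all 49 genes. FPKM times length gave whole reads for 100% of nonzero values within 0.01 of a read. These reads give the depth (16045724 to 16927742 per library) and the read numbers. Read numbers carry counting error and also the variation between pools, as for Ifi27l2a with 187 and 535 reads in the WT pools.

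log2(FPKM + 0.5) was compared with limma 3.58.1 (trend, Benjamini-Hochberg, two-sided) in R 4.3.3 for the 15414 genes with a mean of at least 0.5 FPKM, after a check on simulated data. The fit used both pools of each group and no block. Promoters and plots used Python 3.11.15. Members, lists and motifs were chosen with earlier results of these data known. Values per pool are given for the 3 most abundant genes of each role, all genes of roles with 4 or fewer, and genes whose groups overlapped. Of each pathway list with genes past the filter, the 4 most abundant genes are named, with values per pool or the difference. Pools of a group are separate pools per the labels, so errors reflect pools and not single animals. Each SE is from the limma fit, which draws the variance of a gene toward a trend over all genes. It can be smaller or larger than the spread of the gene's own pools. For Ifi27l2a the SE was 0.53 beside a within-group SD of 0.78, and for Ifi35 it was 0.12 beside 0.080. A result for one further gene is not reported here.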

Additional observations from a re-analysis of the deposited data

How the results depend on the processing

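Pseudocounts of 0.1 and 1, no filter or a minimum of 1 FPKM, quantile normalization, rescaling to the non-mitochondrial total, no trend and voom weights on recovered reads were tried, as was leaving out each pool, and no gene passed the adjusted threshold under any. An unadjusted p under 0.05 was found for 974 genes, and for 687 to 1720 when 1 pool was left out, most without WT pool 1. The replicate numbers did not pair the samples (correlation of deviations −0.0017), and a fit blocked on that number called 0 genes, with 932 below 0.05 before adjustment.

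Leaving out 1 pool at a time, the median difference of the antiviral genes ran from −0.94 to −0.34, weakest without WT pool 2. The medians of the other lists ran from −0.18 to 0.032 for receptors, −0.44 to −0.12 for JAK, STAT and IRF genes, −0.32 to 0.0036 for adaptors, −0.31 to 0.0036 for negative regulators, −1.41 to −0.76 for GTPases, −0.30 to 0.032 for paralogs, −0.55 to −0.20 for proximal tubule genes and −1.22 to 0.025 for macrophage genes, and each positive value came without WT pool 2. With voom weights the GTPase median was −1.45.

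Of the 47 antiviral genes past the filter, 41 kept their direction under every alternative run on single genes. Leaving out 1 pool at a time, the differences ran from −0.79 to 0.041 for Rsad2, −0.86 to 0.074 for Ifitm3, −0.44 to 0.039 for Helz2 and −0.71 to 0.0025 for Phf11d, each positive without WT pool 2. They ran from −0.099 (without WT pool 1) to 0.28 for Ifitm2 and from −0.39 (without KO pool 1) to 0.59 for Lgals3bp, and with quantile normalization these became −0.0099 and −0.014. With a pseudocount of 0.1 the differences of Mx1 and Mx2 were −1.65 and −0.98, and with voom weights −2.13 and −1.24. Voom weights also gave −1.99 for Zbp1 and −1.36 for Oas1g. Requiring another A after the promoter core left 17 of 19 genes. The cause of these shifts was not tested. With 2 pools a group, 1 pool decides much of each value, and genes with few reads, such as Oas3, Ifi47 and Mx1, are limited by depth.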
